A study of Homo sapiens with 6 samples.

Results

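The genes described here are the sestrins SESN1, SESN2 and SESN3, the stress-induced inhibitor DDIT4, the tuberous sclerosis genes TSC1 and TSC2, the GTPase RHEB, and the mTORC1 genes MTOR, RPTOR and DEPTOR. They were taken by name, through their Ensembl identifiers, as 10 of the 78932 genes counted in each library. The RNA came from Karpas-45, a human cell line grown from T-cell acute lymphoblastic leukemia, whose labels give bone marrow as the tissue and leukemic blasts as the cell type. The MEF2C hairpin group (genotype label MEF2C KD, shMEF2CKD2) carried a GFP-linked short hairpin RNA against MEF2C from a lentiviral vector. The scramble group (genotype label WT) is the control, and both groups are labelled untreated. GFP-positive cells had been sorted at 120 hours. Each group held 3 libraries that the labels call technical replicates of 1 line and 1 hairpin, so p-values reflect no more than the variation among such replicates.

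mTORC1 is a protein kinase complex that joins nutrient and growth factor signals to protein synthesis and restrains autophagy. The kinase MTOR works with the scaffold RPTOR, which brings in substrates, and DEPTOR is an inhibitory subunit. RHEB, bound to GTP, activates the kinase on the lysosome, and the TSC1 and TSC2 proteins form the complex that switches RHEB off. DDIT4, also called REDD1, acts through that complex to lower mTORC1 activity. The sestrins bind GATOR2 and so hold back the Rag GTPases, and SESN2 releases GATOR2 when it binds leucine. SESN2 and DDIT4 are known targets of ATF4, and SESN3 is a known FOXO target. Karpas-45 is known to carry a fusion of KMT2A with FOXO4.

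The hairpin target and the places where its seed match occurs in these genes are shown first, since the labels set the groups apart by their hairpin. Transduction, sorting or culture that differed between the groups could not be told apart from it. The stated target lies in exon 9 of 12 of MEF2C-201, at chr5:88731793-88731813 on the minus strand of GRCh38. It matched 24 transcripts of MEF2C in GENCODE 29 and no transcript of another gene. The capitals mark GGAATGA, the match to bases 2 to 8 of the strand complementary to the target. GGAATGA occurred in the 3' UTR of 3 of the 10 genes: 2 times in SESN1 and 1 time each in SESN3 and TSC1. Of 19083 genes with a 3' UTR in GENCODE 29, 9.93% held it. That share was not matched for length, and the 3' UTRs of SESN1, SESN3 and TSC1 had 1107, 7742 and 4887 bases. Any effect of the seed match on these genes was not tested. The longest run that any of the 10 genes' transcripts shared with the target, on either strand, was 10 bases, in SESN1. The windows below lie in exon 10 of 10 of SESN1-204, at chr6:108987498-108987527 (site 1) and chr6:108987105-108987134 (site 2), and in exon 23 of 23 of TSC1-201, at chr9:132896205-132896234. All 3 are on the minus strand of GRCh38 and run 5' to 3'.
MEF2C hairpin target: cccaatgaatttaGGAATGAa
SESN1 site 1: aagatgattctGGAATGAtcagcagatata
SESN1 site 2: ttcctgctggaGGAATGAatagatggctgt
TSC1 site: GGAATGAtggtcaatcagtgttaacttgca

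Gene reads ran from 45560303 to 97077335 per library, and a floor of 3 reads corresponded to at most 0.0673 CPM (reads per 1e6 gene reads, on TMM-scaled library sizes). MEF2C received 2, 0 and 0 reads in MEF2C hairpin replicates 1 to 3, against 2, 1 and 0 reads in scramble replicates 1 to 3. All 6 values are at or under the floor, so the targeted gene cannot check the labels and gets no fold change. Summed over 11 T-lineage markers such as CD3E and LCK, the libraries held 3142 to 3195 CPM with the MEF2C hairpin, against 3016 to 3069 CPM with the scramble hairpin, and none of the 11 was at or under the floor. Most of that sum came from LCK, the CD3 genes, ZAP70 and PTPRC, and single markers differed more: CD5 had 17.5 to 20.3 CPM with the MEF2C hairpin and 8.12 to 9.28 CPM with the scramble hairpin, and CD7 had 59.0 to 60.3 CPM with the MEF2C hairpin and 37.9 to 41.6 CPM with the scramble hairpin. The sums were 4.03 to 4.18 CPM against 3.03 to 3.60 CPM for 6 B-lineage markers, with MS4A1, PAX5 and CD22 at or under the floor. They were 1.64 to 2.54 CPM against 1.78 to 2.13 CPM for 7 myeloid markers, with FCGR3A and CD33 at or under the floor. They were 0.707 to 1.69 CPM against 0.550 to 6.06 CPM for 5 erythroid markers. For 7 markers of embryonic kidney cells, the usual virus producer, they were 26.9 to 28.3 CPM against 24.6 to 26.3 CPM, with KRT18, SALL1 and EPCAM at or under the floor. PODXL alone gave most of that last sum, at 24.0 ± 0.868 CPM with the MEF2C hairpin and 21.6 ± 0.420 CPM with the scramble hairpin (SD, n = 3 each). The part of other cell types in the results below was not tested. Reads that aligned to more than 1 place took 16.1% of all reads in MEF2C hairpin replicate 3 and at most 6.86% in the other libraries.

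SESN2 was the most changed of the 10 genes, and it was lower in MEF2C hairpin cells. DDIT4 was higher, MTOR lower, and SESN1 and RPTOR slightly higher. TSC1, TSC2 and RHEB did not pass the test, and SESN3 and DEPTOR were at the limit of detection in both groups. Of the 10 genes, 8 were tested. By edgeR's quasi-likelihood test with an adjusted p under 0.05, 5 of these 8 were called (62.5%), beside 28.8% of the 17677 genes tested. Since the genes were chosen with earlier results of these data known, setting their shares beside the background is not a test. Of the 8, 3 were higher (37.5%), beside 13.5% of tested genes, and 2 were lower (25%), beside 15.3%. The called genes are also the 5 whose groups did not overlap in CPM, which held for 39.9% of tested genes. The 8 tested genes had means between 32.3 and 175.5 CPM, and of the 5069 tested genes inside that range 45.6% were called, 16.0% higher and 29.6% lower. Without MEF2C hairpin replicate 1, or without scramble replicate 2, 3 of the 10 were called, namely SESN2, DDIT4 and MTOR.

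**Figure D1:**
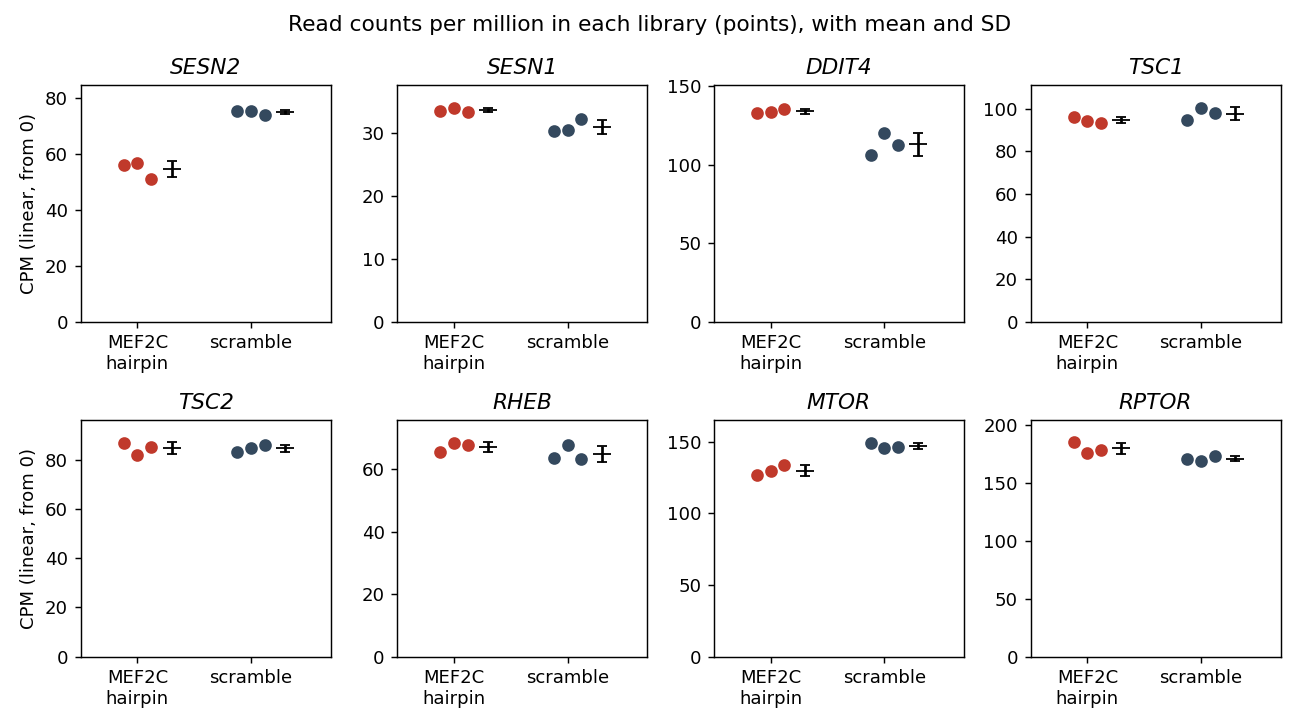
CPM in each library for the 8 tested genes, with MEF2C hairpin libraries in red and scramble libraries in blue and each axis starting at 0. Black marks give the mean and SD of 3 libraries. SESN2 lies at 51.1 to 56.6 CPM with the MEF2C hairpin and at 74.0 to 75.4 CPM with the scramble hairpin.

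The sestrins differed from each other in level and in direction. SESN2 (ENSG00000130766.5, chromosome 1, 28259527 to 28282491, plus strand) encodes a leucine-binding sestrin. It had 55.9, 56.6 and 51.1 CPM in MEF2C hairpin replicates 1 to 3. Scramble replicates 1 to 3 had 75.2, 75.4 and 74.0 CPM. The highest MEF2C hairpin library thus lay well under the lowest scramble library. The log2 fold change was -0.45 (SE 0.0360, edgeR adjusted p = 9.88e-13), which is 27.0% less RNA, and 14.5% of all tested genes had a larger change in either direction. Fewer cells that express a gene and less of its RNA per cell cannot be told apart in such bulk samples. MEF2C hairpin replicate 3, the library with the most multiply aligned reads, gave the lowest SESN2 value, and without it the log2 fold change was -0.41 (edgeR adjusted p = 1.29e-10).

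SESN1 (ENSG00000080546.14, chromosome 6, 108986437 to 109094819, minus strand), which like SESN2 restrains mTORC1 through GATOR2, had 33.4, 34.0 and 33.4 CPM in MEF2C hairpin libraries, against 30.3, 30.4 and 32.3 CPM in scramble libraries. The groups did not overlap, but the gap between their nearest libraries was narrower than the range of the scramble libraries. The log2 fold change was 0.12 (SE 0.0451, edgeR adjusted p = 0.0471). SESN1 was no longer called in 8 of 14 alternatives, among them no filter on low counts, DESeq2, and leaving out any library other than scramble replicate 3, with adjusted p from 0.0200 to 0.162 over the 14. The 2 sestrins were thus set apart within each library. The log2 ratio of SESN2 to SESN1 counts was 0.74, 0.73 and 0.61 in MEF2C hairpin libraries, against 1.31, 1.31 and 1.20 in scramble libraries. The difference of -0.58 had p = 0.1 in a two-sided exact permutation test, which is the smallest p that 3 libraries against 3 allow, and this ratio was chosen after the values were seen.

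SESN3 (ENSG00000149212.12, chromosome 11, 95165513 to 95232541), the sestrin known as a FOXO target, received 1, 2 and 0 reads in MEF2C hairpin libraries, against 0 reads in each scramble library. All 6 values are at or under the floor of 3 reads, so neither group gave detectable SESN3 at this depth, and it has no fold change.

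DDIT4 was higher with the MEF2C hairpin. The gene (ENSG00000168209.6, chromosome 10, 72273920 to 72276036, plus strand) had 132.7, 133.5 and 135.5 CPM in MEF2C hairpin libraries, against 105.9, 120.3 and 112.4 CPM in scramble libraries. The scramble libraries were spread more widely, and all 3 lay under the lowest MEF2C hairpin library. The log2 fold change was 0.25 (SE 0.0314, edgeR adjusted p = 1.52e-07), or 18.8% more RNA. It remained called in all 14 alternatives, at log2 values from 0.18 to 0.30. An antisense gene, DDIT4-AS1, covers 41.2% of the exonic bases of DDIT4 in GENCODE 29. The sources used here do not state the strand setting of the counting. Whether reads there were given to DDIT4, to DDIT4-AS1 or to neither is thus not known. DDIT4 and SESN2, both known targets of ATF4, thus went in opposite directions: the log2 ratio of DDIT4 to SESN2 counts was 1.30 ± 0.0943 with the MEF2C hairpin and 0.59 ± 0.0915 with the scramble hairpin (SD, n = 3 each; exact permutation p = 0.1, two-sided, the smallest possible; ratio chosen after the values were seen).

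The genes of the switch between DDIT4 and the kinase did not pass the test. TSC1 (ENSG00000165699.16, chromosome 9, 132891348 to 132946874), the stabilising subunit of the TSC complex, had 96.1, 94.2 and 93.4 CPM in MEF2C hairpin libraries, against 94.6, 100.5 and 98.2 CPM in scramble libraries. The groups overlapped, with a log2 fold change of -0.05 (95% interval -0.11 to 0.01, edgeR adjusted p = 0.254). TSC2 (ENSG00000103197.20, chromosome 16, 2047465 to 2089487), the subunit that acts on RHEB, had 87.0, 82.2 and 85.3 CPM in MEF2C hairpin libraries, against 83.1, 84.8 and 86.1 CPM in scramble libraries. Its groups overlapped almost fully, with a log2 fold change of 0.00 (95% interval -0.06 to 0.06, edgeR adjusted p = 0.987). Exons of NTHL1 and PKD1 cover 6.01% of the exonic bases of TSC2, and PKD1 was well expressed at 169 ± 2.42 CPM with the MEF2C hairpin and 173 ± 3.40 CPM with the scramble hairpin (SD, n = 3 each). RHEB (ENSG00000106615.10, chromosome 7, 151466012 to 151520120), the GTPase that activates mTORC1, had 65.3, 68.2 and 67.6 CPM in MEF2C hairpin libraries, against 63.6, 67.7 and 63.2 CPM in scramble libraries. Its groups overlapped through scramble replicate 2, with a log2 fold change of 0.05 (95% interval -0.02 to 0.12, edgeR adjusted p = 0.299). These 3 intervals reach at most 0.12 from 0 on the log2 scale.

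The kinase and its scaffold moved apart. MTOR (ENSG00000198793.14, chromosome 1, 11106535 to 11262507, minus strand) had 126.6, 129.4 and 133.7 CPM in MEF2C hairpin libraries, against 149.3, 145.4 and 146.4 CPM in scramble libraries. Every MEF2C hairpin library lay under every scramble library. The log2 fold change was -0.18 (SE 0.0258, edgeR adjusted p = 7.45e-07), a fall of 11.7%, and the call held in all 14 alternatives. MTOR-AS1, the antisense gene inside MTOR, received 1 read in the 6 libraries together.

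RPTOR (ENSG00000141564.16, chromosome 17, 80544819 to 80966371, plus strand) had 185.2, 176.1 and 178.6 CPM in MEF2C hairpin libraries, against 170.9, 169.1 and 173.1 CPM in scramble libraries. The groups were separated by a narrow gap, with MEF2C hairpin replicate 1 highest. The log2 fold change was 0.07 (SE 0.0244, edgeR adjusted p = 0.0221). The call was lost after correcting for GC content and length (log2 fold change 0.021, edgeR adjusted p = 0.519), without MEF2C hairpin replicate 1 (0.05, edgeR adjusted p = 0.192) and without scramble replicate 2 (0.07, edgeR adjusted p = 0.0857), in a range of 0.00551 to 0.519 over 14 alternatives. DEPTOR (ENSG00000155792.10, chromosome 8, 119873717 to 120050913), the inhibitory subunit, received 0, 1 and 1 reads in MEF2C hairpin libraries, against 1, 4 and 2 reads in scramble libraries. Only scramble replicate 2 exceeded the floor of 3 reads, and DEPTOR has no fold change.

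**Figure D2:**
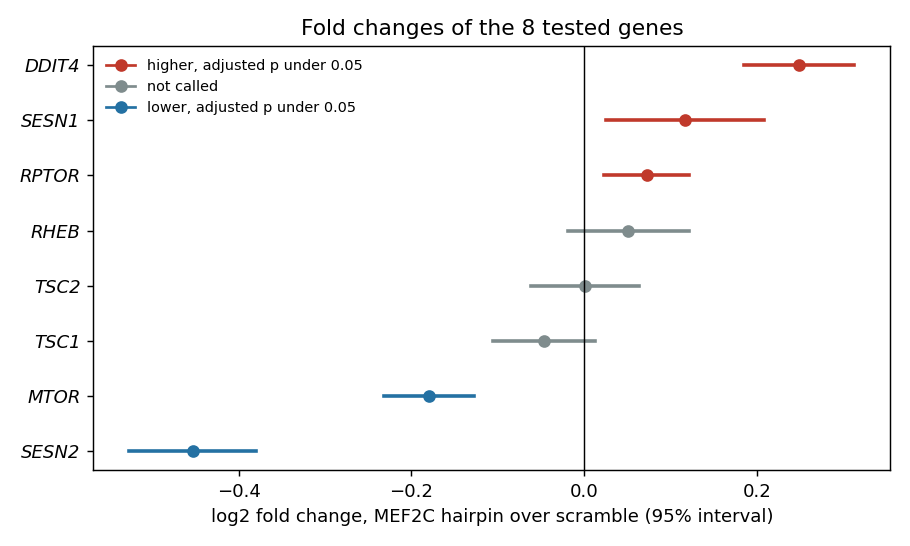
Log2 fold change, MEF2C hairpin over scramble, with its 95% interval for the 8 tested genes, in edgeR's quasi-likelihood fit of 3 libraries per group. Genes run from DDIT4 (0.25) at the top to SESN2 (-0.45) at the bottom, and the intervals of RHEB, TSC2 and TSC1 cross 0.

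Per kilobase of merged exons, DDIT4 had the highest level of the 8 detected genes, at 65.1 ± 0.695 CPM per kilobase with the MEF2C hairpin and 54.8 ± 3.52 with the scramble hairpin (SD, n = 3 each). That length includes the 41.2% of DDIT4 bases shared with DDIT4-AS1, where the assignment of reads is not known. RHEB followed in MEF2C hairpin libraries at 19.0 ± 0.430 CPM per kilobase, against 18.3 ± 0.696 in scramble libraries, and RPTOR at 17.5 ± 0.456, against 16.6 ± 0.194 (SD, n = 3 each). SESN2 stood below these with the MEF2C hairpin, at 15.8 ± 0.861 CPM per kilobase, and next to DDIT4 with the scramble hairpin, at 21.7 ± 0.229 (SD, n = 3 each). MTOR, SESN1, TSC1 and TSC2 followed in that order in both groups. In neither group did any of the 7 pairs of neighbours in the order overlap between libraries. The order depends on the length used. Over the transcript with the longest coding sequence, SESN1 was lowest of the 8, below TSC1 and TSC2. It had 9.58 CPM per kilobase with the MEF2C hairpin and 8.83 with the scramble hairpin. Over that length SESN2 stood below RHEB and RPTOR in both groups, so its change of place was not seen. With the scramble hairpin SESN2 had 21.7, RHEB 31.2 and RPTOR 26.7 CPM per kilobase. With the MEF2C hairpin SESN2 had 15.8, RHEB 32.3 and RPTOR 28.1.

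**Figure D3:**
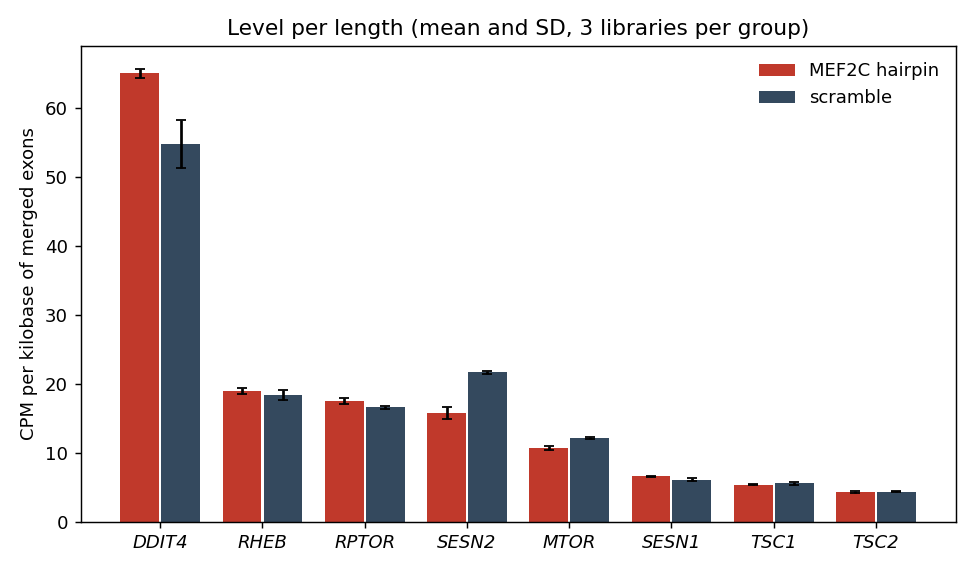
CPM per kilobase of merged exons (mean and SD of 3 libraries) for the 8 tested genes, with MEF2C hairpin bars in red left of scramble bars in blue and the axis starting at 0. DDIT4 stands above the rest, and SESN2 has the widest gap between groups among the other 7.

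The promoters, taken as 250 bases before to 50 after each start listed by RefSeq on GRCh38.p14, were found for 9 of the 10 genes, with 12 starts in all. They were searched on both strands for motifs of ATF4, FOXO and MEF2 factors and for the E-box. The FOXO motif GTAAACA was in none of the 12, and in 3.42% of all 35116 promoters. The 10-letter MEF2 consensus was in none of the 12, and in 2.99% of all. The motif TGATGNAA, bound by ATF4 with C/EBP factors, was in 1 promoter, of TSC2, and in 3.62% of all, while the E-box CACGTG was in that same promoter, overlapping it, and in 7.26% of all. No match to these motifs was in the windows of SESN2 or DDIT4, which says only that the letters are not there. The TSC2 match is shown because it is the 1 promoter here that carries these motifs. Its window is chr16:2047864-2047893 on the plus strand, with TGATGCAA (capitals) from -110 to -103 of the start.
TSC2 promoter window: gccccgtcacgTGATGCAAggatcgccggc

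Around these genes, 107 further genes in 14 lists of the pathway were read from the same fit. Of the 102 tested, 27 were higher (26.5%) and 24 lower (23.5%), beside 13.5% and 15.3% of all tested genes and 16.0% and 29.6% of those at levels like the 8 tested genes. The median log2 fold change was 0.00 both for the 102 and for all tested genes. These shares are the background for each list count that follows. As the lists were chosen with earlier results of these data known, such comparisons are not tests. The GATOR2 subunits, which the sestrins bind, gave 3 lower and none higher of 5 tested, beside 15.3% lower and 13.5% higher among all tested genes, with a median of -0.12. WDR24 changed by -0.26 (SE 0.0424, edgeR adjusted p = 7.72e-06), WDR59 by -0.17 and SEH1L by -0.12, and the groups overlapped for none of these 3. Other exons cover 35.7% of the exonic bases of WDR24. None of the 3 GATOR1 genes was called, with a median of -0.02, though after correcting for GC content and length NPRL3 was called lower. NPRL3, which had the highest level of the 3, had 59.2 ± 0.762 CPM with the MEF2C hairpin and 60.4 ± 3.86 CPM with the scramble hairpin (SD, n = 3 each). None of the 4 genes of KICSTOR, which anchors GATOR1 to the lysosome, was called either, with a median of -0.02. In that list KICS2 was called higher under upper-quartile scaling, the stricter filter, limma-voom, the GC and length correction, and without scramble replicate 2, and KPTN was called lower under the GC and length correction.

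Among amino acid sensors, 2 of 4 tested genes were higher and 1 was lower, with a median of 0.03. The SAMTOR gene, listed as BMT2, whose protein senses S-adenosylmethionine, rose by 0.23 on the log2 scale, and CASTOR2, of the arginine-sensing CASTOR family, rose by 0.15, a call lost after the correction for GC content and length. The leucyl-tRNA synthetase gene LARS1 changed by -0.10. Of 9 Rag GTPase and Ragulator genes, which recruit mTORC1 to the lysosome, 1 was lower, RRAGC, and none higher, with a median of -0.03. Under the GC and length correction 2 were lower, and under the stricter filter and without scramble replicate 3, 1 was higher. RRAGC changed by -0.16. It lost its call when any 1 of the MEF2C hairpin libraries was left out, and without scramble replicate 2 or 3. FLCN, the RagC activator, was the 1 gene called among 3 of its complex, at 0.20, and its call was lost without MEF2C hairpin replicate 2. The median of that complex was 0.05.

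MLST8, the subunit that mTORC1 shares with mTORC2, fell with MTOR. It measured 66.3 ± 0.943 CPM with the MEF2C hairpin and 74.0 ± 0.595 CPM with the scramble hairpin (SD, n = 3 each), which is -0.16 on the log2 scale with SE 0.0319 and edgeR adjusted p = 0.000142. It was the 1 gene called of 3 further mTORC1 and TSC complex subunits, whose median was -0.08. In mTORC2, the sister complex, 1 of 3 tested genes was higher and none lower, with a median of 0.02. That gene was PRR5, at a low level of 3.43 ± 0.205 CPM with the MEF2C hairpin and 1.98 ± 0.436 CPM with the scramble hairpin (SD, n = 3 each; log2 fold change 0.80, edgeR adjusted p = 0.000141).

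The growth factor kinase genes upstream of TSC2 gave 6 lower and none higher of 9, with a median of -0.11, and 1 was higher under upper-quartile scaling, the stricter filter, limma-voom and without scramble replicate 2. The AKT-activating kinase gene PDPK1 changed by -0.19 (SE 0.0276, edgeR adjusted p = 1.13e-06), and the kinase gene AKT2 by -0.15. Other exons cover 23.7% of PDPK1. AMPK and LKB1 genes, which signal low energy to TSC2 and RPTOR, gave 1 higher and 2 lower of 8 tested, with a median of 0.01. The regulatory subunit genes PRKAB2 and PRKAG2 changed by -0.33 and 0.33, and STK11, which encodes LKB1, by -0.11.

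Downstream of the kinase, 5 of 11 tested mTORC1 substrate genes were higher and 2 were lower, with a median of 0.04. LARP1, which represses mRNAs of the translation machinery, changed by -0.12, the autophagy gene ATG13 by -0.15, and ULK1, the kinase that starts autophagy, by 0.13. The ULK1 call was lost after the correction for GC content and length, under which 2 of the substrate genes were higher, while 3 were higher without scramble replicate 2. Of 21 tested lysosome and autophagy genes that are known targets of TFEB and TFE3, 11 were higher and 2 lower, with a median of 0.12, beside 13.5% and 15.3% of all tested genes. The protease gene CTSB rose by 0.27 on the log2 scale (SE 0.0408, edgeR adjusted p = 2.31e-06), to 51.8 ± 2.64 CPM with the MEF2C hairpin, against 43.1 ± 1.19 CPM with the scramble hairpin (SD, n = 3 each). PSAP, the precursor of the saposins, rose by 0.12. The count of 2 lower genes became 1 without MEF2C hairpin replicate 1 or 3, or without scramble replicate 1 or 2.

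**Figure D4:**
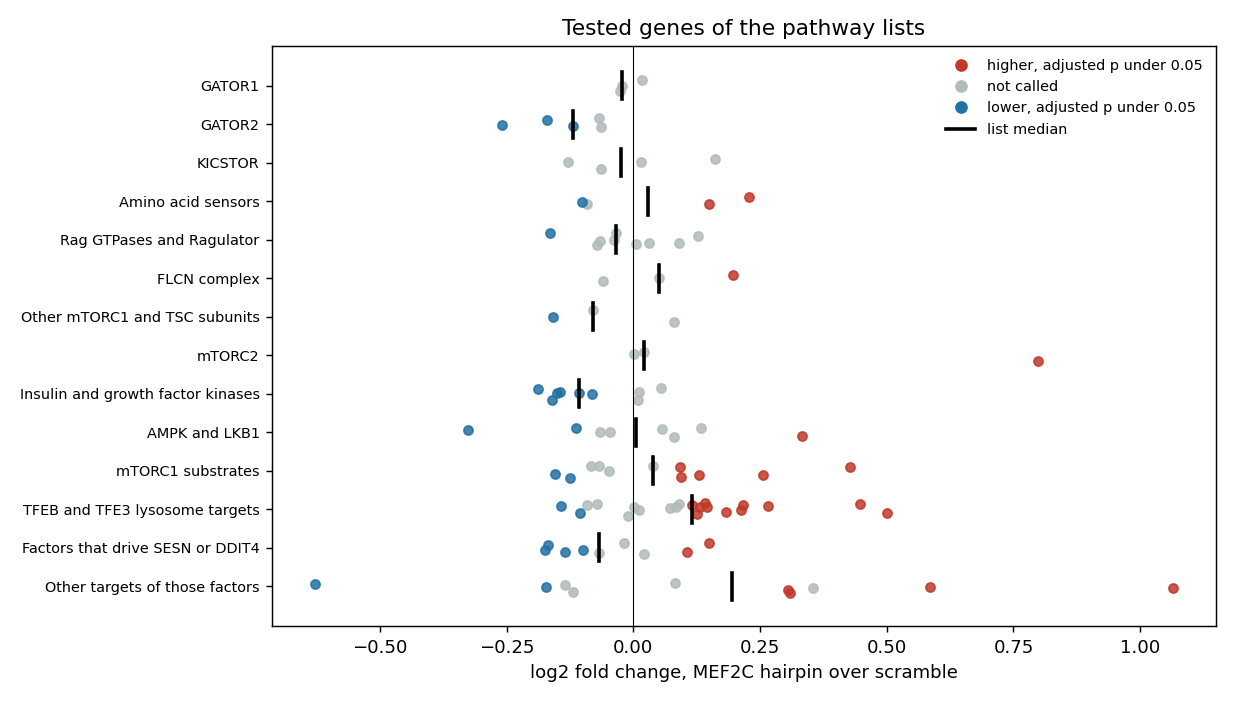
Log2 fold change, MEF2C hairpin over scramble, for the 102 tested genes of 14 pathway lists, 1 point per gene, with the list median as a black bar. Red points are higher and blue points lower at an adjusted p under 0.05. GATOR2 and the growth factor kinases hold no red point, and the lysosome targets hold 11.

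Of 9 genes for transcription factors known to drive sestrin or DDIT4 genes, 2 were higher and 4 lower, with a median of -0.07. ATF4, the factor of the amino acid response, had 654 ± 3.17 CPM with the MEF2C hairpin and 735 ± 20.6 CPM with the scramble hairpin (SD, n = 3 each; log2 fold change -0.17, edgeR adjusted p = 2.17e-08). FOXO3 changed by -0.17 and the glucocorticoid receptor gene NR3C1 by 0.15. Of 10 other known targets of these factors, 4 were higher and 2 lower, with a median of 0.19. The ATF4 target TRIB3 fell to 64.1 ± 0.428 CPM with the MEF2C hairpin, against 99.2 ± 2.41 CPM with the scramble hairpin (SD, n = 3 each). Its log2 fold change was -0.63, in the direction of SESN2 and opposite to that of DDIT4. ASNS, another known ATF4 target in that list, was not called (log2 fold change -0.12, edgeR adjusted p = 0.756). It had a low level, with means of 1.13 CPM with the MEF2C hairpin and 1.23 CPM with the scramble hairpin, and its groups overlapped. The part of ATF4 in these changes was not tested. CDKN1A, an inhibitor of cyclin-dependent kinases, rose to 11.0 ± 0.197 CPM, against 5.29 ± 0.518 CPM (SD, n = 3 each; log2 fold change 1.06), and TXNIP, an inhibitor of thioredoxin, rose by 0.59. The edgeR adjusted p was 1.06e-18 for TRIB3, 4.95e-12 for CDKN1A and 1.95e-12 for TXNIP.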

How the data were processed

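The deposited files hold raw gene counts of reads, in whole numbers, as the authors made them, with 1 file for each library and no scaling. Trim Galore, STAR and HTSeq were used with hg38, per the submitters' processing notes, which name no versions. The sources used here name no strand setting and no annotation release. Total RNA was taken with TRIzol and TruSeq is the library kit named, per the labels' protocols. The 5 HTSeq lines that name no gene took 19.2% to 31.4% of reads and stayed out of library sizes and tests.

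Identifiers without version were matched to symbols (94.2% of tested genes). GENCODE 29 (GRCh38), with 90.0% of tested genes, gave positions, lengths, overlaps and 3' UTRs. Promoters came from RefSeq on GRCh38.p14. The low-count filter was filterByExpr (minimum count 10), and scaling was by TMM. edgeR 4.0.16 under R 4.3.3 fitted a robust quasi-likelihood model across all genes with group as the only term, and p-values were adjusted by Benjamini-Hochberg across the 17677 genes. A positive log2 fold change means higher with the MEF2C hairpin, and SE is the size of that value divided by the root of F. Chi-square per gene between replicates was 3.34 to 4.50, where sampling noise alone would give 1. The libraries were thus not taken as repeat deposits or splits of 1 library. This does not make them independent samples, and the labels call them technical replicates. Floors cover counting error only.

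The 10 genes and the lists were chosen with earlier results of these data known. All 10 are named, with MEF2C, the up to 3 called genes of each list with the smallest adjusted p (or, with none called, the one with the highest mean CPM), and the 3 genes of at least 5 CPM most like the gene with the smallest adjusted p. Alternatives were DESeq2 size factors, upper-quartile scaling, no filter, at least 1 CPM in 3 libraries, DESeq2 1.42.0, limma-voom (limma 3.58.1), a replicate block, a GC and length correction, and leaving out each library. The transcript length for levels was chosen after seeing the data. Some genes that this rule selects, and 1 motif, are not reported here.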

Additional observations from a re-analysis of the deposited data

Results flagged for a closer look

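Reads that aligned to more than 1 place took 16.1% of all reads in MEF2C hairpin replicate 3, against 3.67 to 6.86% in the 3 scramble libraries. These reads enter no gene count. Without that library, 4 of the 10 genes were called instead of 5, with SESN1 lost (log2 fold change 0.12, edgeR adjusted p = 0.0729), while DDIT4 gave 0.24 and MTOR -0.20.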

How the results depend on the processing

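SESN2, DDIT4 and MTOR kept their direction and their call, and TSC1, TSC2 and RHEB stayed without a call, in all 14 alternatives; TSC2, near 0, took either sign. SESN2 ranged from -0.51 to -0.41 and MTOR from -0.20 to -0.16 on the log2 scale. SESN1 lost its call at 0.12 each with no filter (edgeR adjusted p = 0.0639), in DESeq2 (adjusted p = 0.0551) and with a replicate block (edgeR adjusted p = 0.0627), and ranged from 0.10 to 0.15 when libraries were left out in turn. RPTOR gave 0.021 with the GC and length correction and 0.051 to 0.088 when libraries were left out. Leaving out libraries gave 3 to 5 called members, 1 to 3 of them higher and 2 lower. The cause of these losses was not tested. Of the pathway genes, MAF1 turned from 0.09 to -0.0011 with the GC and length correction and lost its call (edgeR adjusted p = 0.983). The 102 pathway genes had 1425 values, each for a gene under an alternative. Besides that reversed value of MAF1, 41 of these values lost a call with their sign kept, and 16 gained one. For 79 genes the outcome, called or not called, stayed the same throughout. Deviations of same-numbered libraries had correlations of -0.11, 0.02 and 0.03, beside -0.13 to 0.14 for differently numbered ones. With 3 libraries per group these values cannot decide whether the replicate numbers pair libraries. The replicate block gave 4892 called genes against 5097. The low-count filter left SESN3, DEPTOR and MEF2C, with at most 4 reads in any library, without a test.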

Other observations

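The 3 protein-coding genes of at least 5 CPM whose centred log2 CPM followed SESN2 most closely over the 6 libraries, of 9454 compared, were ZNF146, RASSF3 and GNG2, with root mean square differences of 0.0241, 0.0324 and 0.0408. ZNF146, a zinc finger gene, had 101 ± 2.78 CPM with the MEF2C hairpin and 141 ± 1.15 CPM with the scramble hairpin (SD, n = 3 each). RASSF3, of the RAS association domain family, had 31.0 ± 1.07 CPM with the MEF2C hairpin and 43.5 ± 0.930 CPM with the scramble hairpin (SD, n = 3 each). GNG2, a G protein gamma subunit gene, had 75.4 ± 1.88 CPM with the MEF2C hairpin and 105 ± 2.12 CPM with the scramble hairpin (SD, n = 3 each). Their log2 fold changes were -0.47, -0.49 and -0.48, beside -0.45 for SESN2. This is a description of likeness over 2 groups and says nothing of shared control.

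Of the further pairs of genes set side by side within each library, the log2 ratio of RPTOR to MTOR counts was 0.47 ± 0.0695 with the MEF2C hairpin and 0.22 ± 0.0233 with the scramble hairpin (SD, n = 3 each; exact permutation p = 0.1, two-sided, the smallest possible). The log2 ratio of TSC2 to TSC1 counts was -0.16 ± 0.0360 with the MEF2C hairpin and -0.21 ± 0.0328 with the scramble hairpin (SD, n = 3 each; exact permutation p = 0.3, two-sided). These 2 ratios and the 2 of the report were chosen after the values were seen.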
